A study of Mus musculus with 8 samples.

Results

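The genes described are Slc2a1, which encodes the glucose transporter GLUT1, and 9 genes of glycolytic enzymes: Hk1, Hk2, Pfkl, Pfkp, Aldoa, Pgk1, Eno1, Pkm and Ldha. A probe set was taken for a gene where the platform's gene table named that gene alone. This gave 22 probe sets for 9 of the 10 genes, out of 41409 probe sets kept on the array and 17389 genes named by them. Eno1, the enolase gene, had no such probe set, so its expression was not analysed here. Total RNA of the SThdh111/111 line (4 samples) was compared with that of the SThdh7/7 line (4 samples), each on its own Affymetrix mouse array. As background, lines of these names are known as striatal cells of mouse embryos, immortalised with a conditional viral oncoprotein, that carry knocked-in CAG repeats on both alleles of Htt, the Huntington's disease gene. The repeat is long in SThdh111/111 and short in SThdh7/7. Each genotype is 1 line, so genotype cannot be told apart from other differences between the lines, and the labels do not say whether samples came from separate cultures. The p-values therefore measure the spread between these samples, which may be technical.

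Glycolysis turns a molecule of glucose into pyruvate in the cytosol and gains ATP and NADH on the way. Glucose enters through transporters such as GLUT1, is trapped by hexokinase and is committed to the pathway by phosphofructokinase, and most of the later enzymes work near equilibrium and are abundant in most cells. Most steps are served by several isozymes from separate genes, which differ in tissue and in control, and pyruvate is then either reduced to lactate or burned in mitochondria. Hypoxia-inducible factor (HIF) and Myc are known activators of many of these genes. The series is titled as a study of histones at genes with reduced expression in models of Huntington's disease, and the comparison here asks which of the glycolytic genes were lower in SThdh111/111.

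Of the 9 measured genes, 5 were lower in SThdh111/111 and 0 were higher, at an adjusted p under 0.05 (limma, adjusted over all kept probe sets; each gene taken at the probe set with the highest mean). The genes that fell were Hk1, Pfkp, Pgk1, Pkm and Ldha. Those not called were Slc2a1, Hk2, Pfkl and Aldoa. At an unadjusted p under 0.05 the limma counts were 5 lower and 2 higher, the last being Slc2a1 and Pfkl. The lines differed widely, and all 9 genes were bright. Among the 9342 genes with a mean log2 intensity of at least 8, 45.5% were called, 24.5% as lower and 21% as higher. Over all named genes the shares called were 29%, 15.9% lower and 13.1% higher. The share called among the 9, both directions together, was thus close to that of bright genes. By direction it was not: 5 of the 9 were lower and 0 higher, beside 24.5% lower and 21% higher. This split was not tested. The median difference of the 9 genes (SThdh111/111 minus SThdh7/7) was -0.36 on the log2 scale, beside -0.09 for all named genes and -0.03 for the bright ones. The direction of a small difference depended on the scaling. As deposited, the kept probe sets together had a median difference of -0.12, and the median was 0.04 once arrays were centred at a common median. After centring 2 of the 9 genes were called lower, Hk1 and Pfkp, and 1 was called higher, Pfkl, beside 12.1% lower and 21.5% higher among bright genes. After quantile normalization 6 were called lower, the 5 and Aldoa, and 1 higher, Slc2a1, beside 24.7% lower and 20.6% higher among bright genes.

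The arrays of SThdh7/7 samples 1 and 2 stood apart, with median intensities of 173.9 and 174.0, against 136.2 to 147.0 on the other 6. Without them 5 genes were again called lower, and 1, Pfkl, was called higher, against 0 with all arrays. The ratio of 3′ to 5′ signal at the Gapdh control probe sets, a sign of RNA quality, was -0.56 to -0.47 on the log2 scale in SThdh111/111 and -0.49 to -0.41 in SThdh7/7. A floor was set from the bacterial control probe sets, at their 95th percentile on the array where it was highest, SThdh7/7 sample 2. It was a log2 intensity of 7.02, and each of the 9 genes lay above it on all 8 arrays. This percentile differed between the lines without overlap. As an intensity, its lowest value was 98.65 in SThdh7/7, and its highest was 77.53 in SThdh111/111. How this gap bears on dim genes called lower in SThdh111/111, and on counts of arrays above the floor, was not tested. The striatal label was checked against markers. Ppp1r1b, Drd1, Gad1, Tubb3 and Snap25 lay below the floor on all 8 arrays, and 3 of 15 striatal and neuronal markers lay above it on all 8. Of the 15, 2 were called higher and 2 lower in SThdh111/111. Foxp1 was higher (difference 0.29), and Rgs9 and Map2 were lower (differences -0.71 and -0.52). Penk, a striatal neuropeptide gene above the floor on all 4 SThdh111/111 arrays and on 1 of 4 SThdh7/7 arrays, was higher by 2.96 (limma adjusted p = 2.5e-05). When values under the floor were raised to it, the Penk difference was 2.41. Of 9 fibroblast and mesenchymal markers 6 were called higher in SThdh111/111 and 1 lower. Col1a1, Col1a2, Col3a1 and Pdgfra were higher (differences 2.17, 4.34, 1.19 and 1.09), as were Dcn and Lum, which lay below the floor on all SThdh7/7 arrays. Acta2, smooth muscle actin, was lower (difference -1.76), and Pdgfrb was not called. The summed intensity of all 9 was 93968 to 109460 in SThdh111/111, against 26807 to 27735 in SThdh7/7. Of the other marker lists, 2 of 7 astrocyte markers were called higher and 1 lower, 0 of 5 oligodendrocyte markers higher and 1 lower, 1 of 7 microglia and blood cell markers higher and 2 lower, and 0 of 6 endothelial markers higher and 2 lower. Above the floor on all 8 arrays in these lists, Gja1 and Csf1r were higher (differences 0.72 and 0.49), Aldh1l1, Cnp and Cd68 lower (differences -2.47, -0.47 and -1.75), and Sox10 and Kdr not called. Itgam, Ptprc and Aif1 of the microglia and blood list lay below the floor on all 8 arrays, as did Mog and Pecam1. The part of these markers in the results below was not tested.

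The DNA just before the starts of 4 genes that fell, and of Pfkl, which did not, is shown because these windows hold the core letters that HIF is known to bind. The fifth gene that fell, Pkm, is not shown: its window with the lowest coordinate held 0 matches, and its other window held ACGTG once, at 75 bases before the start. They are the 250 bases before the annotated start in RefSeq (build GRCm38.p6), written 5′ to 3′ on the gene's strand, and capitals mark each ACGTG or GCGTG on either strand. Where a gene has several annotated starts, the one with the lowest coordinate is shown.
Hk1 (chr10:62340422-62340671, - strand): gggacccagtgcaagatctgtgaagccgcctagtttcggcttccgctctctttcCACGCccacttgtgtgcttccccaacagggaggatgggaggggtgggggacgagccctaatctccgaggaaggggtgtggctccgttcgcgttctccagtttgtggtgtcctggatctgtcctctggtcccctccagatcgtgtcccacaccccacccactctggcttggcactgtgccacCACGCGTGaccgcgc
Pfkp (chr13:6648772-6649021, - strand): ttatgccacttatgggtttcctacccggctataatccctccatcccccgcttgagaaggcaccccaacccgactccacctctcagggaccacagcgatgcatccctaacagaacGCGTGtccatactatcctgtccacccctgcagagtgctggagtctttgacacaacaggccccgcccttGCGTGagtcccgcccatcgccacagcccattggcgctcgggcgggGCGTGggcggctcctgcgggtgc
Pgk1 (chrX:106186850-106187099, + strand): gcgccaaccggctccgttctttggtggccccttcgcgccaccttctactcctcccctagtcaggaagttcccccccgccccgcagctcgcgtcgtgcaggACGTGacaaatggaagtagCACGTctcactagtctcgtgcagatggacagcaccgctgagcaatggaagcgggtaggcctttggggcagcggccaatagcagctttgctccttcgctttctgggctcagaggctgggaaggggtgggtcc
Ldha (chr7:46845554-46845803, + strand): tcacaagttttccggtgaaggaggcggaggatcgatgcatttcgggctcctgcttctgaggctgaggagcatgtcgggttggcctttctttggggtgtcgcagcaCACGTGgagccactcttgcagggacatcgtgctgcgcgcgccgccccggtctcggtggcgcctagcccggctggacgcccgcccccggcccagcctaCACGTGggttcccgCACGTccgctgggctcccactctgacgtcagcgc
Pfkl (chr10:78009808-78010057, - strand): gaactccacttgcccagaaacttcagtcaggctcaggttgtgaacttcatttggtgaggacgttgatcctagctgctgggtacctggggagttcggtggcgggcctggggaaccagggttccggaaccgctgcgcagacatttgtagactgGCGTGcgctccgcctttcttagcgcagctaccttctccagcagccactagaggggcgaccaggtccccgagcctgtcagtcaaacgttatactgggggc
The first Ldha window held 5 matches of ACGTG, counted on both strands. It holds 2 copies of CACGTG, the palindrome known to be bound by Myc, and each copy contains ACGTG on both strands and so counts as a pair of matches. The Pgk1 window held ACGTG at 150 and 131 bases before the start. In the first Hk1 window GCGTG stood at 196, 15 and 12 bases before the start. In the Pfkp window GCGTG stood at 136, 68 and 23 bases before the start, and the Pfkl window held GCGTG once, at 99. Windows of other genes not called also held matches, though they are not shown. The Slc2a1 window had 2, at 61 and 36 bases before the start, and that of Hk2 had ACGTG at 226 and 52. Slc2a1 and Hk2 thus had as many matches as Pgk1. The 3 Aldoa windows held 1, 1 and 0 matches. Whether the number of matches goes with the calls was not tested. Of the 17 windows of all 10 genes, Eno1 included, some of which overlap, 14 held ACGTG or GCGTG, which is 82.4%. The share was 38.6% over 32851 mouse windows of this length, and 65.8% over the 7115 windows at least as rich in G and C as the median window of these genes (62.8%). ACGTG alone was present in 16.6% of all windows, GCGTG in 28.2% and CACGTG in 6.02%. CACGTG was held by 1 of the 17 windows, the first of Ldha, which is near the share of all windows. Each of the 10 genes had at least 1 window with a match, so the 5 that fell, the 4 not called and Eno1, which was not measured, all had one. Hk1, Aldoa and Pkm also had 1 window each with none. A match describes letters only.

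Glucose uptake was represented by Slc2a1, on chromosome 4. Its brightest probe set measured 10.15, 10.13, 10.11 and 10.24 on the log2 scale in SThdh111/111, against 10.06, 9.78, 9.92 and 9.94 in SThdh7/7. All 4 SThdh111/111 arrays lay above all 4 SThdh7/7 arrays, by a narrow margin at SThdh7/7 sample 1. The difference of 0.24 ± 0.09 (SE; 95% interval 0.05 to 0.42) did not pass the threshold (limma adjusted p = 0.072). The other 2 probe sets differed by 0.18 and 0.17 and overlapped between the lines. It was called higher after quantile normalization (0.26, adjusted p = 0.047), with dim probe sets left out below a log2 of 8, and without SThdh7/7 sample 1 (0.28, adjusted p = 0.040). Its first 2 probe sets were nearly equal in mean, so leaving out 1 array sometimes made the other the brightest, with differences down to 0.13.

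Hexokinase, which phosphorylates glucose on entry, was measured as 2 isozymes. Hk1, the widespread hexokinase of brain, on chromosome 10, measured 11.44, 11.40, 11.34 and 11.32 in SThdh111/111, against 12.30, 12.33, 12.07 and 12.13 in SThdh7/7. The groups were far apart beside their spread, with means of 11.37 ± 0.06 in SThdh111/111 and 12.21 ± 0.13 in SThdh7/7 (SD, n = 4 each). Hk1 fell by 0.83 on the log2 scale, a 1.78-fold lower intensity in SThdh111/111 (limma adjusted p = 1.2e-06), and its other probe set fell by 0.71. Hk2, the insulin- and growth-responsive isozyme, on chromosome 6, measured 8.67, 8.80, 8.58 and 8.63 in SThdh111/111, against 8.80, 9.51, 9.02 and 8.76 in SThdh7/7. The lines overlapped, since SThdh7/7 sample 2 was high and samples 1 and 4 were near the SThdh111/111 arrays. The difference of -0.36 ± 0.17 (SE) was not called (adjusted p = 0.16), and its 95% interval ran from -0.71 to 0.00. Without SThdh7/7 sample 2 it was -0.19, so 1 array carried much of it.

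Phosphofructokinase, the main control point of the pathway, had its platelet-type and liver-type subunits on opposite sides of 0. Pfkp, on chromosome 13, measured 9.61, 9.55, 9.40 and 9.50 in SThdh111/111, against 10.22, 10.37, 10.26 and 10.38 in SThdh7/7. Every SThdh111/111 array was below every SThdh7/7 array. Pfkp fell by 0.79 on the log2 scale, a 1.73-fold lower intensity (limma adjusted p = 1.3e-05), and a second probe set fell by 1.11. Its dimmest probe set lay around the floor, differed by -1.54 ± 0.80 (SE) and was not called. Pfkl, on chromosome 10 like Hk1, measured 10.67, 10.47, 10.68 and 10.60 in SThdh111/111, against 10.48, 10.45, 10.21 and 10.24 in SThdh7/7. The lines touched, at SThdh111/111 sample 2 and SThdh7/7 samples 1 and 2. The difference of 0.26 ± 0.09 (SE) missed the threshold (adjusted p = 0.055). A second Pfkl probe set was called higher, at 0.25 ± 0.08 (SE; adjusted p = 0.045), and another, dim one differed by -0.50 (adjusted p = 0.17), so the mean over the 3 probe sets was -0.00. Without SThdh7/7 samples 1 and 2 the Pfkl difference was 0.38 (adjusted p = 0.0096).

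**Figure D1:**
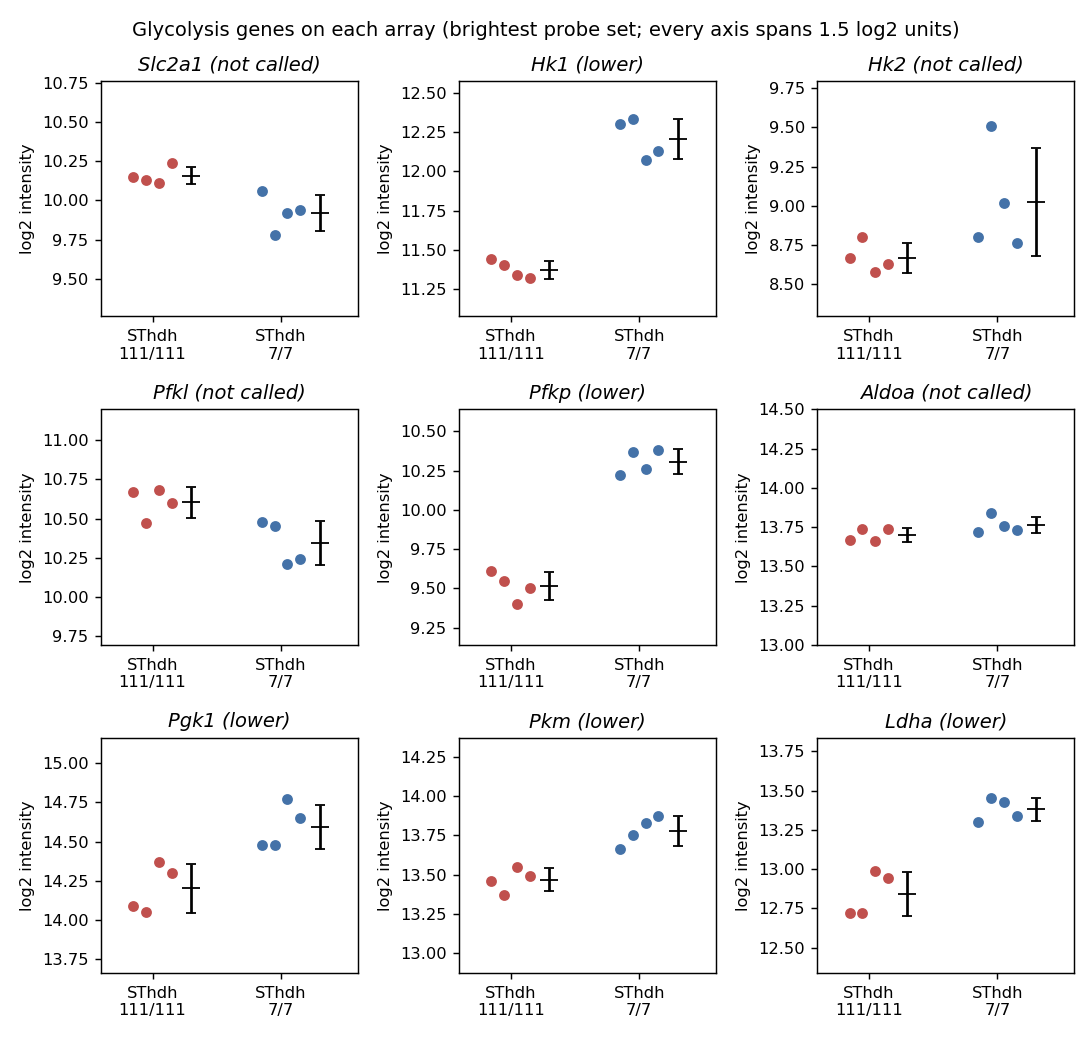
Log2 intensity of the brightest probe set of each measured gene on every array, with SThdh111/111 on the left and SThdh7/7 on the right of each panel; points are arrays, black bars the mean ± SD of 4 arrays, and each vertical axis spans 1.5 log2 units. Hk1 and Pfkp show the widest gaps, with SThdh111/111 means of 11.37 and 9.52 below SThdh7/7 means of 12.21 and 10.31, while the 2 groups of Aldoa overlap.

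Aldolase A (Aldoa, chromosome 7) splits the sugar bisphosphate into a pair of triose phosphates. It had 5 probe sets, each of a kind that can match other transcripts, and none was called. The brightest measured 13.67, 13.74, 13.66 and 13.74 in SThdh111/111, against 13.72, 13.84, 13.76 and 13.73 in SThdh7/7. The groups overlapped, and the difference of -0.06 ± 0.06 (SE) had a 95% interval of -0.18 to 0.06. The other 4 probe sets differed by -0.22 to 0.17. Aldoa was called lower after quantile normalization (-0.32, adjusted p = 0.0012) and stood at 0.09 after centring.

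Phosphoglycerate kinase 1 (Pgk1, on the X chromosome), the first enzyme of the pathway to yield ATP, was lower at all 3 of its probe sets. The brightest measured 14.09, 14.05, 14.37 and 14.30 in SThdh111/111, against 14.48, 14.48, 14.77 and 14.65 in SThdh7/7. The lines did not overlap, although SThdh111/111 sample 3 came close to SThdh7/7 samples 1 and 2. Pgk1 fell by 0.39 on the log2 scale at that probe set (limma adjusted p = 0.0046) and by 0.56 and 0.67 at the others. After centring the difference was -0.24 and was not called (adjusted p = 0.43).

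Pyruvate kinase (Pkm, chromosome 9) makes pyruvate and ATP at the last step. Its only probe set measured 13.46, 13.37, 13.55 and 13.49 in SThdh111/111, against 13.66, 13.75, 13.83 and 13.87 in SThdh7/7. The groups were separate, and Pkm fell by 0.31 on the log2 scale, a 1.24-fold lower intensity (limma adjusted p = 0.0028). It was -0.16 and not called after centring (adjusted p = 0.56). The gene yields the spliced forms M1 and M2, and this probe set gave 1 value for the gene.

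Lactate dehydrogenase A (Ldha, chromosome 7), the subunit that favours the making of lactate, measured 12.72, 12.72, 12.99 and 12.94 in SThdh111/111, against 13.30, 13.45, 13.43 and 13.34 in SThdh7/7. The lines did not overlap, and SThdh111/111 samples 3 and 4 were the higher ones of that line, as for Pgk1. Ldha fell by 0.54 on the log2 scale, a 1.45-fold lower intensity (limma adjusted p = 1.0e-04). After centring it stood at -0.39 and the call was lost (adjusted p = 0.066). Its upstream window is the one with 2 copies of CACGTG shown above.

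Groups did not overlap for 6 of the 9 genes at the brightest probe set, Slc2a1 and the 5 that fell, beside 47.8% of bright genes. Of the 22 probe sets 9 were called lower and 1 higher, against 12.6% lower and 9.87% higher over all kept probe sets. These shares are not matched for brightness. Most of the 22 were bright, and 45.5% of bright genes were called, against 22.4% of all kept probe sets. All probe sets of Hk1, Pgk1, Pkm and Ldha were called lower, as were 2 of 3 of Pfkp. With the intensity trend left out of the variance model, 3 of the 9 genes were called lower, since Pgk1 and Pkm lost their calls (adjusted p = 0.079 and 0.078). Hk1 and Pfkp kept theirs in every alternative in which they had a probe set, with differences of -0.91 to -0.68 for Hk1 and -1.15 to -0.64 for Pfkp.

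**Figure D2:**
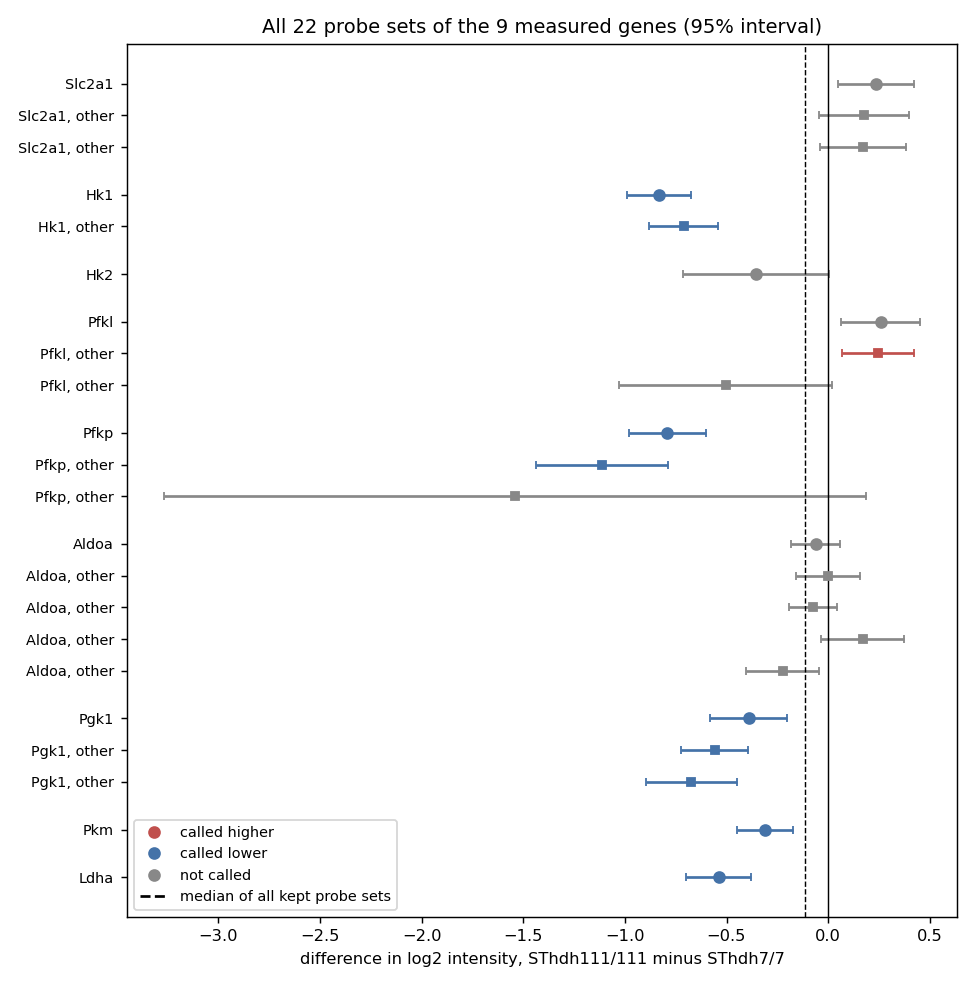
Difference in log2 intensity (SThdh111/111 minus SThdh7/7) with its 95% interval for all 22 probe sets, circles for the brightest of a gene and squares for its others; the dashed line is the median of all kept probe sets, -0.12. The probe sets of Hk1, Pgk1, Pkm and Ldha lie wholly below 0, and those of Aldoa lie on both sides of 0.

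**Figure D3:**
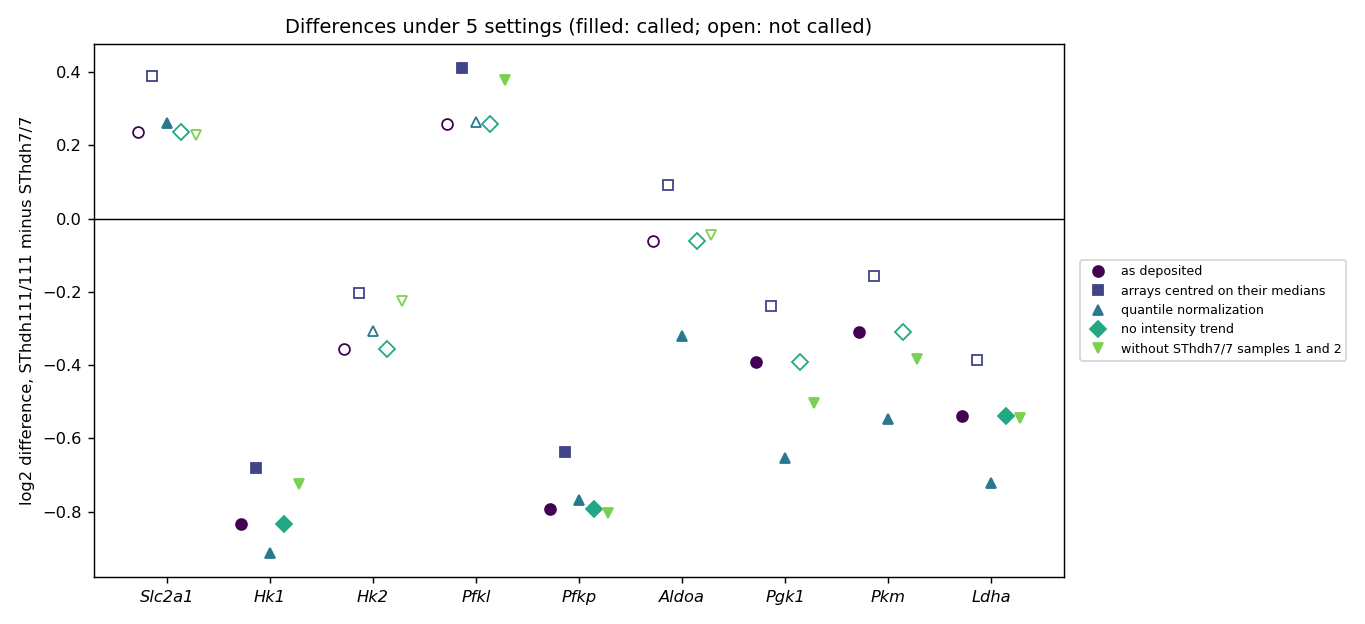
Difference in log2 intensity (SThdh111/111 minus SThdh7/7) of each gene as deposited and under 4 other settings, filled where called and open where not. Hk1 and Pfkp are filled and below 0 in all 5 settings, while Pgk1, Pkm and Ldha lie nearer 0 and are open when arrays are centred on their medians.

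Because the isozymes of a step were read on the same arrays, their log2 ratio within an array does not depend on a factor common to that array. Of the 6 pairs chosen, 5 could be run, each with an exact permutation test over the 8 arrays (two-sided, 70 assignments, smallest possible p 0.0286), adjusted over the 5. A ratio of probe sets shows unequal change between the lines and does not rank the levels of the isozymes. The Pfkp over Pfkl ratio was -1.06, -0.91, -1.28 and -1.10 in SThdh111/111, against -0.26, -0.08, 0.05 and 0.14 in SThdh7/7. The groups did not overlap, and the mean ratio was lower in SThdh111/111 (difference -1.05, exact permutation adjusted p = 0.048). With the mean over each gene's probe sets it was -1.15 (exact permutation adjusted p = 0.071). It still stood at the smallest possible p, and the adjusted p was higher because fewer pairs stood there. It was -0.29 (adjusted p = 0.29) without the probe sets marked as matching more than 1 transcript. There the dim Pfkl probe set took the place of the brightest. The Hk2 over Hk1 ratio was -2.77, -2.60, -2.76 and -2.69 in SThdh111/111, against -3.51, -2.82, -3.05 and -3.36 in SThdh7/7. It was higher in SThdh111/111 by 0.48 (exact permutation adjusted p = 0.048). With the mean over each gene's probe sets the difference was 0.42 and was not called (exact permutation adjusted p = 0.19).

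The widest gap was at lactate dehydrogenase. The Ldha over Ldhb ratio was -0.54, -0.44, -0.31 and -0.33 in SThdh111/111, against 3.48, 4.02, 3.73 and 4.10 in SThdh7/7. All 4 SThdh111/111 ratios were below 0 and all 4 SThdh7/7 ratios above it, with a difference of -4.24 (exact permutation adjusted p = 0.048). With the mean over each gene's probe sets it was -5.69 (exact permutation adjusted p = 0.071). That ratio still stood at the smallest possible p, and its adjusted p was higher only because fewer pairs stood there. Ldhb encodes the heart-type subunit, which favours the use of lactate. Its probe set with the highest mean measured 13.27, 13.16, 13.29 and 13.27 in SThdh111/111, against 9.82, 9.43, 9.70 and 9.23 in SThdh7/7. Ldhb rose by 3.70 ± 0.11 (SE), a 13.0-fold higher intensity (limma adjusted p = 2.2e-11). The other 3 Ldhb probe sets were called higher too. Of these, 1 rose by 5.0, and the remaining 2, which lay around the floor in SThdh7/7, differed by 5.48 and 5.93 when values under the floor were raised to it. The remaining 2 pairs were not called. Aldoa over Aldoc differed by -0.19 (exact permutation adjusted p = 0.49) and Slc2a1 over Slc2a3 by 0.68 (adjusted p = 0.21), and Aldoc and Slc2a3 lay around the floor.

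**Figure D4:**
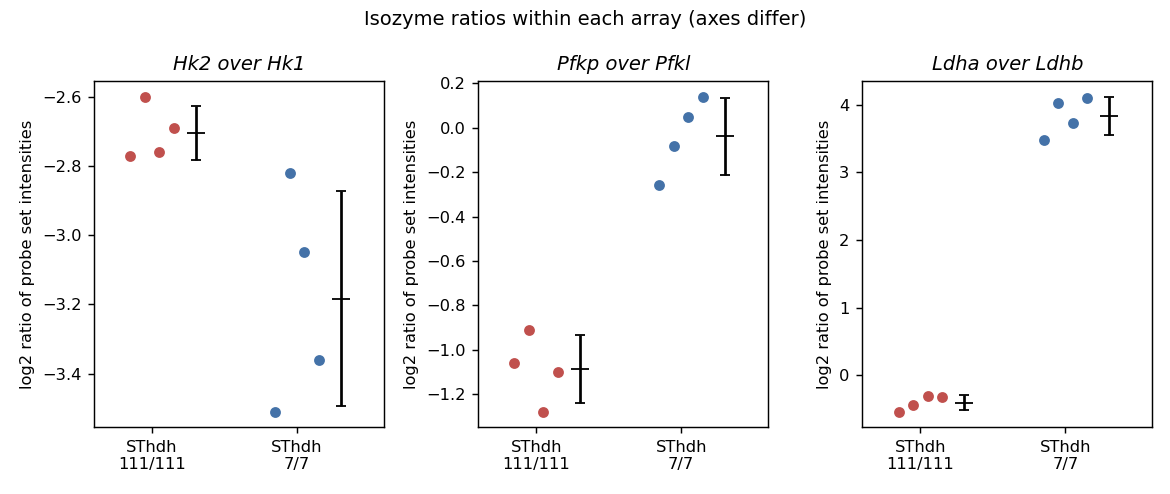
Log2 ratio of probe set intensities of 2 isozymes within each array, with SThdh111/111 on the left and SThdh7/7 on the right; points are arrays and bars the mean ± SD of 4. The Ldha over Ldhb ratio averages -0.41 in SThdh111/111 and 3.83 in SThdh7/7, and the 3 vertical axes differ.

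The other genes of glucose metabolism were taken as lists. Of 15 measured glycolytic enzymes besides the 9 genes, 1 was higher, Ldhb, and 4 were lower (median difference -0.13). Eno3, the muscle enolase, measured 7.89, 7.70, 8.19 and 7.78 in SThdh111/111, against 10.15, 9.99, 9.69 and 10.18 in SThdh7/7, and fell by 2.12 on the log2 scale (limma adjusted p = 1.7e-07). Bpgm, which makes the side product 2,3-bisphosphoglycerate, fell by 1.49, and its other 2 probe sets differed by -2.12 and -1.37. Pgam1, phosphoglycerate mutase, fell by 0.38, a call lost after centring. Pklr, the liver and red cell pyruvate kinase, fell by 0.80 (named after its value was seen), read only at the brightest of its 3 probe sets. Tpi1, triose phosphate isomerase, differed by -0.21 (adjusted p = 0.066), with 1 of its other 2 probe sets called lower (-0.38). Gpi1 had no probe set named for it alone. For Gapdh, whose standard probe sets were likewise not named for it alone, the 3 control probe sets on the array were lower in SThdh111/111. They averaged 13.99, 14.52 and 14.08 in SThdh111/111, against 14.62, 15.07 and 14.72 in SThdh7/7, with differences of -0.63, -0.55 and -0.63 (exact permutation p = 0.0286 each, the smallest possible).

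Of 18 other measured genes of glucose and monocarboxylate transporter families, Bsg included, 1 was higher and 2 lower. What each of them carries in these cells was not measured. Bsg, basigin, the partner that carries lactate transporters to the membrane, rose by 0.72 ± 0.06 (SE; limma adjusted p = 1.1e-06). Slc2a6, above the floor on 3 of 4 SThdh111/111 arrays, was lower (difference -0.95 when values under the floor were raised to it). Slc2a9, below the floor on all 4 SThdh111/111 arrays at its brightest probe set, was at least 1.32-fold lower there. Its limma adjusted p of 0.037 belongs to the difference of -1.76 with values under the floor left as they were. The other Slc2a9 probe set overlapped between the lines and was not called (limma adjusted p = 0.14). The calls of Slc2a6 and Slc2a9 were lost after centring. The lactate transporter gene Slc16a1, named after its value was seen, differed by 0.28 (adjusted p = 0.088). Among 8 genes listed as flux regulators, phosphoglucomutase genes included, 1 was higher and 1 lower. Pfkfb2, which makes the activator of phosphofructokinase, rose by 0.97 at its brightest probe set, with dimmer probe sets at -0.32, -0.29 and 1.66. The dimmest, at 1.66, lay below the floor on all 4 SThdh7/7 arrays and differed by 0.04 when values under the floor were raised to it. The mean over all Pfkfb2 probe sets was not called (0.50, limma adjusted p = 0.17). Pgm2, a phosphoglucomutase, fell by 0.33 and was not called once arrays were centred.

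Of 13 measured genes for pyruvate entry into mitochondria, 5 were higher and 1 was lower (median difference 0.22). Pdp1, the phosphatase that switches on pyruvate dehydrogenase, measured 12.85, 12.89, 12.84 and 12.82 in SThdh111/111, against 9.37, 9.03, 9.46 and 9.49 in SThdh7/7. It rose by 3.51 ± 0.09 (SE), an 11.4-fold higher intensity (limma adjusted p = 1.0e-11), and its other probe set by 3.53. Mpc1, a subunit of the mitochondrial pyruvate carrier, rose by 0.86 ± 0.14 (SE), and Pcx, pyruvate carboxylase, by 0.43 ± 0.07 (SE). Without SThdh7/7 samples 1 and 2 the Mpc1 difference was 0.58, and its call was kept. The other 2 that were higher, named after their values were seen, were Dlat and Pdk1. Dlat, the core subunit of pyruvate dehydrogenase, differed by 0.33. Pdk1, a kinase that switches that enzyme off, differed by 1.04 when values under the floor were raised to it. Each was read at 1 probe set, the brightest of 3 for Dlat and of 4 for Pdk1. The lines overlapped at Pdk1, since SThdh111/111 sample 3 (8.28) lay below SThdh7/7 sample 2 (8.46). Pdk3, another such kinase, fell by 0.28 and was likewise not called once arrays were centred. Of 7 gluconeogenesis genes 0 were called by limma, and 2 were lower at an unadjusted p under 0.05. Of 7 genes of the pentose phosphate pathway, which draws on the product of hexokinase, 1 was higher and 2 lower. H6pd, its enzyme in the endoplasmic reticulum, was higher (difference 1.82 when values under the floor were raised to it), above the floor on 3 of 4 SThdh7/7 arrays. With values under the floor left as they were, its difference was 1.93, and 1.40 without SThdh7/7 samples 1 and 2, called in both. Taldo1 and Pgd were lower (differences -0.53 and -0.20), and both calls were lost after centring. Over these lists and the regulators below, 10 of 83 genes were called higher and 13 lower, beside the 13.1% and 15.9% of all named genes. After centring the counts were 11 and 4. Centring moved the background too, to 21.5% higher and 12.1% lower among bright genes, and the share over all named genes was not taken there.

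**Figure D5:**
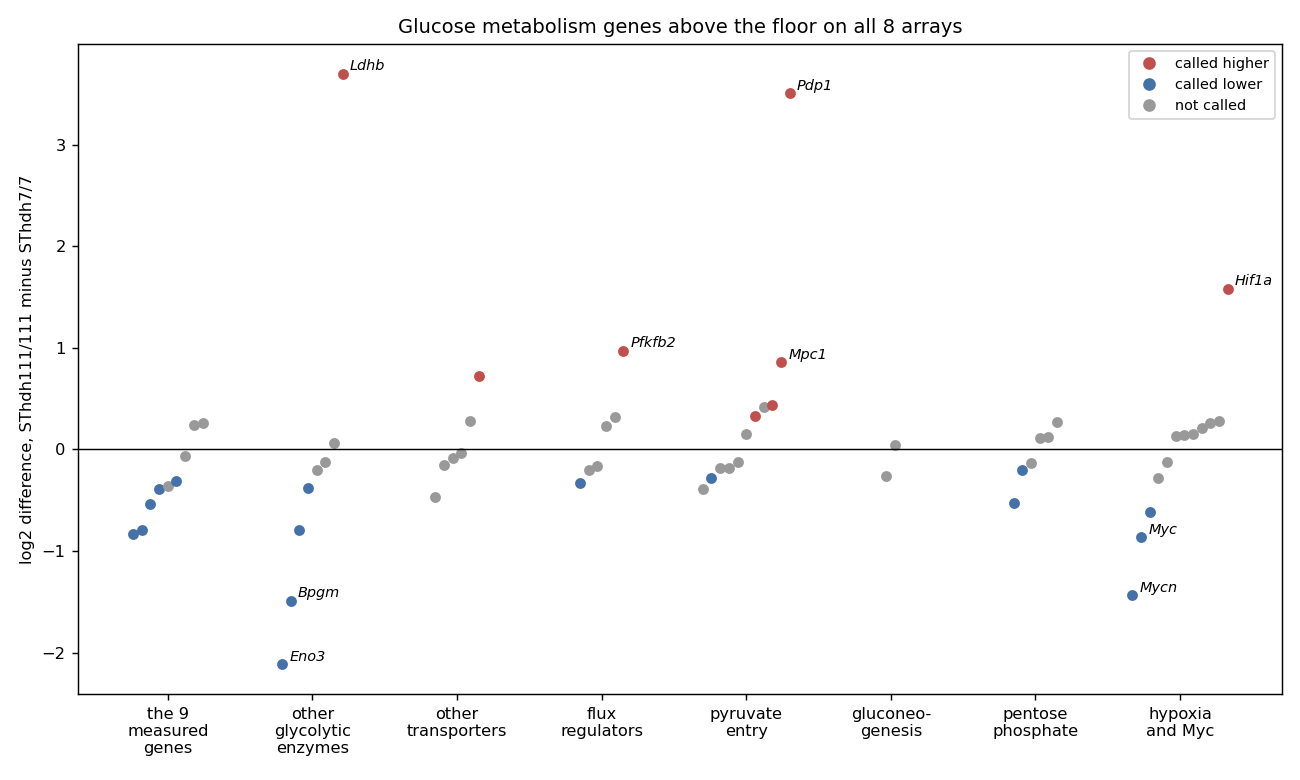
Difference in log2 intensity (SThdh111/111 minus SThdh7/7) of each gene above the floor on all 8 arrays, 1 column per list, coloured by call; called genes beyond 0.8 in size are named outside the first column. Ldhb at 3.70 and Pdp1 at 3.51 stand highest, and Eno3 at -2.12 lowest.

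Of 15 hypoxia and Myc regulators 1 was called higher and 3 lower. Hif1a, the oxygen-regulated subunit of HIF, measured 12.71, 12.69, 12.61 and 12.65 in SThdh111/111, against 11.18, 11.16, 10.95 and 11.05 in SThdh7/7, and rose by 1.58 ± 0.07 (SE; limma adjusted p = 8.6e-10). Its 2 other probe sets above the floor rose by 1.81 and 1.52. Mycn fell by 1.44 at its only probe set above the floor in SThdh7/7, and the mean over its 3 probe sets was not called (difference -0.26, adjusted p = 0.48). Myc measured 7.81, 7.77, 7.69 and 8.47 in SThdh111/111, against 8.50, 8.96, 8.75 and 8.99 in SThdh7/7, and fell by 0.86, SThdh111/111 sample 4 standing near SThdh7/7 sample 1. Egln1, a prolyl hydroxylase that marks HIF for breakdown, fell by 0.62 at 1 of its 2 probe sets, the other being at -0.09. At the probe set called lower the lines overlapped, with SThdh111/111 sample 2 at 9.59 and SThdh7/7 sample 1 at 9.49. The calls of Myc and Egln1 were lost after centring, and that of Egln1 also without the intensity trend (limma adjusted p = 0.073). The other 11 regulators were not called. HIF activity is set largely by the protein, which these arrays did not measure.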

How the data were processed

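Total RNA of 4 SThdh111/111 and 4 SThdh7/7 samples was hybridised, biotin-labelled, to 1 Affymetrix array each. The values used are the deposited table of probe set intensities on a linear scale. The submitters' processing notes name GCRMA, but each array's trimmed mean (2% cut at each end) is 500, a scaling that GCRMA does not make, so the software behind the values is not settled. Values were turned to log2 with no further scaling. The 64 control probe sets were set aside, and 41409 of 45037 others with a log2 of at least 4 on at least 4 of 8 arrays were kept. The lines were compared with limma 3.58.1 in R 4.3.3 (eBayes with an intensity trend), with Benjamini-Hochberg adjustment over all kept probe sets and a threshold of 0.05. The script was tested on simulated data. Of the probe sets, 34945 named 1 gene, 932 several and 9160 none. Gene names are RefSeq symbols looked up from the gene identifiers of the platform table, or its own symbols where none was found. The floor, an intensity of 130.0, was set from 27 bacterial control probe sets, at their 95th percentile on the array where that was highest. The number of arrays limits the precision.

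The genes and lists were chosen with earlier results of these data known. The text names all probe sets of the members, and of each other pathway list the called genes with the lowest adjusted p, up to 3 in each direction. Gapdh, Tpi1, Gpi1, Pgam1, Ldhb, Hif1a and Myc are named whatever their values, and so are markers above the floor on all 8 arrays. Other markers and a few genes so described were named after their values were seen. Alternatives covered the filter, quantile normalization, centring, array weights, the variance trend, probe set choice, the replicate block and left-out arrays. Sample numbers did not pair the lines: deviations of same-numbered samples correlated at -0.014 to 0.0090.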

Additional observations from a re-analysis of the deposited data

Results flagged for a closer look

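Myc on the SThdh111/111 arrays held 1 array far from the other 3. Sample 4 measured a log2 intensity of 8.47, against 7.69 to 7.81 in samples 1 to 3, and this gap was 0.849 of the range of the group, above Dixon's critical value at the 95% level for 4 samples. It was the only one of 70 groups of 4 arrays tested that passed, and chance alone gives about 5% of groups.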

How the results depend on the processing

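Of the differences of the 9 genes under alternatives, 151 of 168 stayed on their side of the threshold, 5 lost a call and 12 gained one; for the named pathway genes these were 337, 41 and 10 of 388. No called difference changed sign. Among differences not called, Pfkl turned to -0.50 without cross-matching probe sets and to -0.00 averaged over its probe sets, and Aldoa to 0.09 after centring. The genes called higher, 0 as reported, were 1 with a filter at log2 6, quantile normalization, centring, array weights or without SThdh7/7 samples 1 and 2, and 2 with a filter at log2 8. The genes called lower, 5 as reported, were 2 after centring, 3 without the intensity trend and 3 without probe sets that can match several transcripts, where Hk1, Aldoa and Ldha had none left. Probe sets called higher, 1 as reported, were 0 without a filter, without the trend, without cross-matching probe sets or with the replicate block, 2 with a filter at 6, quantile normalization, centring or array weights, and 3 with a filter at 8. Those called lower, 9 as reported, were 5 after centring and 3 without cross-matching probe sets, a setting that left 6132 of 9288 calls over all probe sets. Pathway genes called lower, 13 as reported, were 4 after centring and 7 without the trend. With all probe sets of a gene averaged, the ratios differed by 0.42 for Hk2 over Hk1, -1.15 for Pfkp over Pfkl and -5.69 for Ldha over Ldhb. None was past the threshold (exact permutation adjusted p = 0.19, 0.071 and 0.071). The last 2 still stood at the smallest possible p. With only 2 pairs there, the adjusted p could be no lower, so these lost calls do not show a weaker difference. Without cross-matching probe sets Pfkp over Pfkl was -0.29. The replicate block, with numbers that did not pair the samples, left 5 genes lower and 0 higher. Without 1 array in turn, genes called higher ranged from 0 to 2 (2 without SThdh7/7 sample 1, Slc2a1 and Pfkl) and genes called lower from 5 to 5, probe sets called higher from 0 to 3 and lower from 9 to 10, all calls from 8098 to 8747, and pathway genes from 9 to 13 higher and 10 to 15 lower. The ratio differences ranged from 0.37 to 0.60 for Hk2 over Hk1, -1.12 to -0.98 for Pfkp over Pfkl, -0.35 to -0.04 for Aldoa over Aldoc, -4.36 to -4.15 for Ldha over Ldhb and 0.44 to 0.92 for Slc2a1 over Slc2a3, with no test at that size. Slc2a9 lost its call in 11 of 18 alternatives, with a difference of -0.74 without SThdh111/111 sample 3, and Pgd lost its call in 9 of 18. Where an alternative removed probe sets its construction shows the cause, and the adjusted p of 0.071 follows from the adjustment over the pairs. Otherwise the cause was not tested. Differences of dim probe sets are limited by the floor.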
